A study of Homo sapiens with 15 samples.

Results

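The genes described here carry out the synthesis, storage and oxidation of fatty acids in VCaP, an established prostate cancer cell line. They are 39 named genes, taken from a list of symbols and matched to the Ensembl identifiers of the count tables, out of 58381 genes counted. By role they comprise 4 genes of synthesis, 8 of elongation and desaturation, 4 of activation, 3 of transcriptional control, 5 of triglyceride assembly, 4 of droplet coat and lipolysis, 2 of uptake and carriage, and 9 of oxidation. Of the 39 genes, 37 had enough counts to be tested, and THRSP and DECR1 did not.

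Bulk RNA-seq covered 5 VCaP sublines with 3 replicate libraries each, 15 in all. VCaP-T, labelled androgen-sensitive, had been kept for 7 months with 10 nM testosterone in medium with DCC-FBS serum, and the other sublines, labelled resistant, were derived from it. VCaP-CT followed 10 further months, at 0.1 nM testosterone by the treatment protocol and at 10 nM by the sample labels. VCaP-CT-ER was VCaP-CT grown under 10 µM enzalutamide (ENZ), an androgen receptor antagonist, until growth resumed, here the first ENZ step. VCaP-CT-BR was VCaP-CT grown under bicalutamide, an older antagonist, and its label also mentions a following ENZ treatment. VCaP-CT-BR-ER came from the bicalutamide-insensitive cells under ENZ until resistant, here the ENZ step after bicalutamide. Each subline is described as a single derivation, so treatment, time in culture and derivation cannot be told apart. The p-values rest on the spread between libraries of one subline, pooled over the 5 sublines, not between separate derivations.

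Cells make fatty acids from citrate. ATP citrate lyase (ACLY) releases acetyl-CoA, acetyl-CoA carboxylases (ACACA, ACACB) turn it into malonyl-CoA, and fatty acid synthase (FASN) builds palmitate, which elongases and desaturases modify. Acyl-CoA synthetases activate fatty acids, which are then either esterified to triglyceride and stored in lipid droplets or carried into mitochondria by the carnitine palmitoyltransferases and oxidized. In the prostate, androgens are known to raise lipid synthesis, largely through the transcription factor SREBP-1, the product of SREBF1.

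Library totals ranged from 33665716 to 46935279 counted fragments. The 39 genes took between 0.699 and 0.764% of the counts in VCaP-T and between 0.441 and 0.544% in the other sublines. SCD and FASN held the most counts of these genes in each subline and weigh most in this share. All 15 libraries were closest to a library of their own subline. The 8 prostate epithelial markers (KRT8, KRT18, EPCAM, CDH1, HOXB13, ERG, TMPRSS2 and KLK3) were detected in every subline, with a summed level of 7886 to 8162 CPM (counts scaled by TMM library size, per 1e6) in VCaP-T and of 1754 to 2590 CPM in the others. KLK3, the androgen-induced gene for prostate-specific antigen, averaged 3560 CPM in VCaP-T, 33.2 for VCaP-CT, 520.8 for VCaP-CT-ER, 14.1 with VCaP-CT-BR, and 40.04 among VCaP-CT-BR-ER. The 5 adipocyte markers summed to at most 2.36 CPM, and ADIPOQ had no count in any library. The 4 hepatocyte markers, led by TTR and ALB, summed to 4.76 to 5.07 CPM in VCaP-T and to 28.96 to 72.4 CPM in the other sublines, the 4 fibroblast markers to 5.85 to 7.27 CPM in VCaP-T and at most 1.54 CPM elsewhere, and the 5 leukocyte and endothelial markers, led by VWF in VCaP-T, to 13.3 to 16.4 CPM there and at most 9.83 CPM elsewhere. The part of these markers in the results was not tested, and in such bulk samples fewer cells of a type and less RNA per cell cannot be told apart.

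Libraries of one subline differed in a way that touched several of the genes. Among them, FASN, SREBF1, AGPAT2, DGAT1 and PNPLA2 have exons with a GC content of 61.7 to 66.3%, against a median of 48.1% over the genes tested. Their levels moved together with those of other GC-rich genes: the library in which the 1272 genes with the highest GC content stood lowest was also the lowest for FASN, SREBF1 and PNPLA2 in 5 of 5 sublines and for AGPAT2 and DGAT1 in 4 of 5. The same library was the lowest for FADS2 (58.0% GC) in 5 of 5 sublines and for MLXIPL (61.9%), PLIN3 (58.4%) and ACLY (52.3%) in 4 of 5. For ACADVL (58.6%) and ELOVL1 (58.5%) it was the lowest in only 2 of 5, so not every GC-rich gene of the list followed. The median of those 1272 genes lay between −0.19 and 0.18 (log2) of its subline mean, and FASN between −0.39 and 0.29. Each value below comes from the uncorrected fit. A fit with a correction for GC content in each library was added after this was seen. For tested genes of the list, its value is quoted as GC-corrected where it ended a call, turned a direction or crossed 2-fold. It is also quoted where it moved a value by about 1.5 times or more. The corrected fit also removes differences between sublines that follow GC content. Changes of neighbouring genes and of genes in the other lists are given from the uncorrected fit only.

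**Figure D1:**
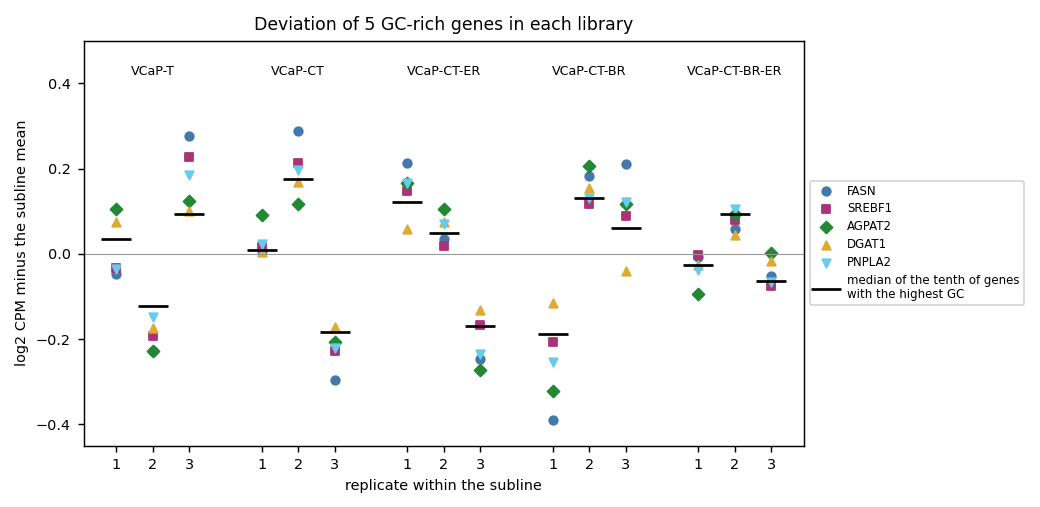
Deviation of 5 GC-rich genes in each library. Points give the log2 CPM of each gene minus the mean of its subline (y axis) for each replicate (x axis), and bars give the median of the 1272 genes with the highest GC content, which lay between −0.19 and 0.18. Points and bars are low together in VCaP-T replicate 2, VCaP-CT replicate 3, VCaP-CT-ER replicate 3 and VCaP-CT-BR replicate 1.

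Across the sublines the genes went in both directions at every step. From VCaP-T to VCaP-CT, 6 of 37 rose and 18 fell by edgeR's quasi-likelihood test (Benjamini-Hochberg adjusted p under 0.05 over 19621 genes), where 33.1% of all genes tested rose and 32.2% fell. At the first ENZ step, 14 rose and 12 fell, against 29.6 and 31.2% of all genes. From VCaP-CT to VCaP-CT-BR, 13 rose and 14 fell, against 26.1 and 27.0%, and at the ENZ step after bicalutamide 15 rose and 13 fell, against 21.2 and 21.7%. The median log2 change of the 37 genes was −0.18, −0.06, 0.01 and 0.05 at these steps, and that of all genes tested 0.03, −0.02, −0.02 and 0.0. Counted by libraries that did not overlap, 6 were higher and 16 lower in VCaP-CT than in VCaP-T (33.6 and 33.1% of all genes), 13 and 12 at the first ENZ step (31.3 and 32.0%), 14 and 15 in VCaP-CT-BR against VCaP-CT (29.1 and 28.6%), and 15 and 15 at the ENZ step after bicalutamide (26.7 and 26.4%). GC-corrected, the counts of genes passing the test were 6 and 24 (32.2 and 36.9% of all genes in that fit), 17 and 12 (32.4 and 31.3%), 14 and 16 (22 and 27.1%), and 15 and 15 (25.0 and 23.2%).

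Changes of at least 2-fold were few. In all 1 gene rose (FABP5) and 5 fell (SCD, ELOVL2, ACSL3, PLIN2 and HADHB) by that much from VCaP-T to VCaP-CT, where 8.6% and 12.2% of all genes did. At the first ENZ step, ELOVL6 and DGAT2 rose and ELOVL7 and CD36 fell, against 7.96 and 9.58% of all genes. AMACR rose and MLXIPL fell from VCaP-CT to VCaP-CT-BR (2.95 and 7.01% of all genes), and at the ENZ step after bicalutamide only CD36 fell and none of the 37 rose by 2-fold (3.77 and 4.21%). Against VCaP-T, 3 rose and 5 fell 2-fold in VCaP-CT-ER (10.3 and 15.1% of all genes), and 2 rose and 6 fell in VCaP-CT-BR-ER (10.3 and 16.8%). VCaP-T held the highest mean level for 14 of the 37 genes (37.8%, against 30.4% of all genes) and the lowest for 3 (8.1%, against 32.3%). VCaP-CT-BR held the lowest for 11 (29.7%, against 18.5%).

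**Figure D2:**
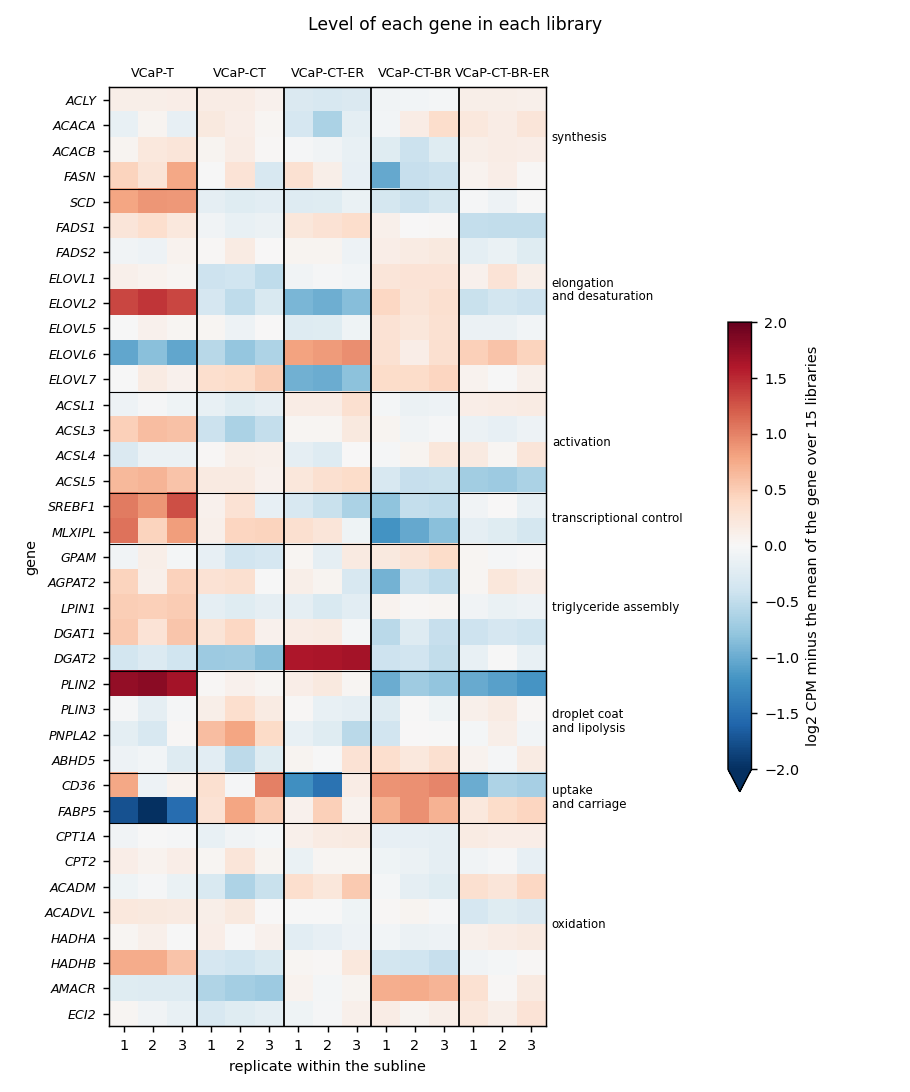
Level of each tested gene in each library, as log2 CPM minus the mean of that gene over 15 libraries (colour, scale from −2 to 2 with lower values in the darkest blue), with the 37 genes grouped by role (rows) and 3 replicates for each of the 5 sublines (columns). PLIN2, ELOVL2, SCD and SREBF1 are high in VCaP-T, and DGAT2 and ELOVL6 are high in VCaP-CT-ER.

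**Figure D3:**
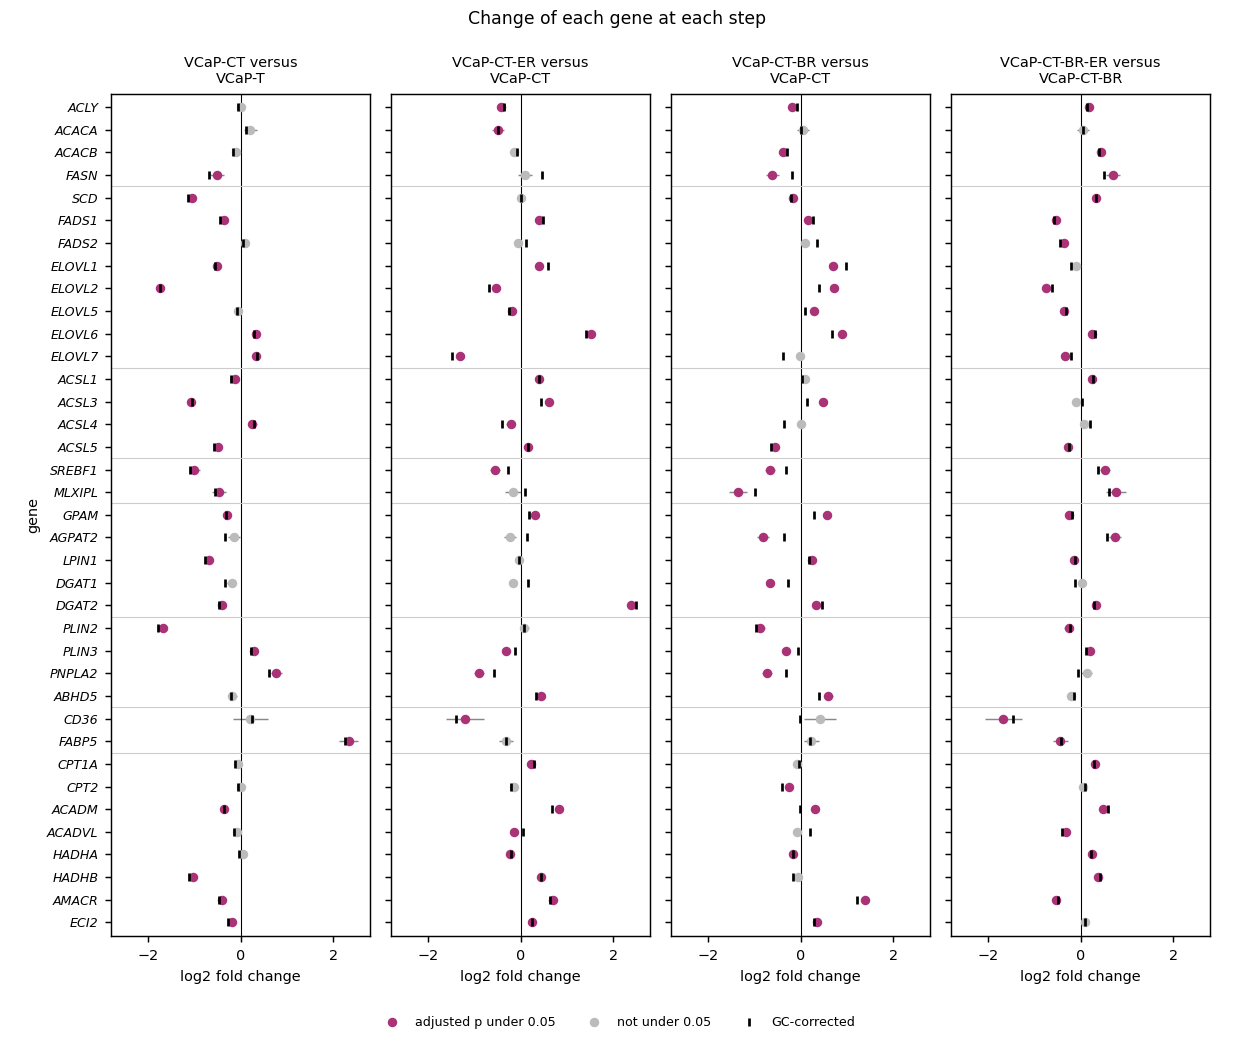
Change of the 37 tested genes at the 4 steps, as log2 fold change from edgeR (points, with the standard error as a bar) and from the GC-corrected fit (black ticks). Coloured points have an adjusted p under 0.05, and from VCaP-CT to VCaP-CT-BR the ticks lie apart from the points for FASN, AGPAT2, DGAT1, PNPLA2 and SREBF1, among others.

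Of the 4 genes of synthesis, FASN and ACLY had the highest counts. FASN was at 1505, 1328 and 1883 CPM in the VCaP-T libraries, 1098, 1335 and 889.8 for VCaP-CT, 1363, 1203 and 990.3 for VCaP-CT-ER, 543, 808 and 823 with VCaP-CT-BR, and 1160, 1214 and 1124 among those of VCaP-CT-BR-ER. The 3 VCaP-CT libraries spanned a wider range than the difference of their mean from VCaP-CT-ER, and the VCaP-T libraries overlapped with those of VCaP-CT. FASN fell from VCaP-T to VCaP-CT by 0.51 (log2, ± 0.15 SE, edgeR adjusted p = 0.00547) and from VCaP-CT to VCaP-CT-BR by 0.61 (± 0.15, adjusted p = 0.00169), and it rose at the ENZ step after bicalutamide by 0.69 ± 0.15 (adjusted p = 0.000818). At the first ENZ step the difference was 0.10 ± 0.15 (adjusted p = 0.587). GC-corrected, that difference became 0.45 (adjusted p = 1.99e-07) and the fall to VCaP-CT-BR shrank to −0.18 (adjusted p = 0.0138), with changes of −0.68 from VCaP-T to VCaP-CT and 0.51 at the ENZ step after bicalutamide.

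ACLY was at 301, 301 and 304 CPM in the VCaP-T libraries, 308, 307 and 295 for VCaP-CT, 227, 222 and 226 for VCaP-CT-ER, 264, 267 and 269 with VCaP-CT-BR, and 300.3, 302 and 297 among those of VCaP-CT-BR-ER. Its libraries of one subline lay close together, and VCaP-CT-ER, then VCaP-CT-BR, were below the other sublines without overlap. ACLY fell at the first ENZ step by 0.43 (log2, ± 0.04 SE, edgeR adjusted p = 4.32e-09) and to VCaP-CT-BR by 0.19 (± 0.04, adjusted p = 0.000392; GC-corrected −0.09, adjusted p = 0.0183). It was 0.17 ± 0.04 higher in VCaP-CT-BR-ER than in VCaP-CT-BR (adjusted p = 0.00136), and between VCaP-T and VCaP-CT it differed by 0.01 ± 0.04 (adjusted p = 0.884).

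The carboxylases were counted at low levels. ACACB, the mitochondrial carboxylase whose product inhibits fatty acid import, lay between 5.65 and 8.95 CPM in the 15 libraries. It fell from VCaP-CT to VCaP-CT-BR (−0.38 ± 0.08, edgeR adjusted p = 0.000797) and rose from there to VCaP-CT-BR-ER (0.43 ± 0.08, adjusted p = 0.00024). ACACA was at 2.95, 3.38 and 2.92 CPM in the VCaP-T libraries, 3.74, 3.56 and 3.35 for VCaP-CT, 2.59, 2.11 and 2.86 for VCaP-CT-ER, 3.14, 3.61 and 4.16 with VCaP-CT-BR, and 3.79, 3.61 and 3.88 among those of VCaP-CT-BR-ER. These are 101 to 168 counts per library for the cytosolic carboxylase, which supplies FASN, and the VCaP-CT-ER libraries lay below all others. Of the 20 nearest protein-coding genes, between 36377531 and 38068592 on chromosome 17 (GRCh38), 14 averaged under 10 counts, against 30.9% of all protein-coding genes, and AATF, ZNHIT3, MYO19 and PIGW had no count in any library. This stretch was looked at after the low ACACA values were seen, and its cause was not tested. ACACA fell at the first ENZ step by 0.50 (± 0.13 SE, adjusted p = 0.0024). Its 20 nearest tested genes had a median change of −0.38 at that step, and 15 of them were lower.

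Desaturation was led by SCD, stearoyl-CoA desaturase, which makes oleate. SCD was at 1820, 1943 and 1923 CPM in the VCaP-T libraries, 926, 891 and 904 for VCaP-CT, 883, 890.0 and 954 for VCaP-CT-ER, 819.9, 778 and 824 with VCaP-CT-BR, and 1031, 983 and 1042 among those of VCaP-CT-BR-ER. The VCaP-T libraries lay far above all others, with no overlap. SCD fell from VCaP-T to VCaP-CT by 1.06 (log2, ± 0.05 SE, edgeR adjusted p = 2e-14), while VCaP-CT-ER differed from VCaP-CT by 0.00 ± 0.05 (adjusted p = 0.96). It fell slightly to VCaP-CT-BR (−0.17 ± 0.05, adjusted p = 0.00379) and rose again to VCaP-CT-BR-ER (0.34 ± 0.05, adjusted p = 4e-06). Per kilobase of exon, SCD was the most abundant of the 39 genes and FASN the next in each of the 5 sublines, at 353.5 and 167.9 CPM per kb in VCaP-T and at 150.5 and 77.4 in VCaP-CT-BR.

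The SCD promoter is shown because SCD had the highest level and because CCAAT boxes, bound by NF-Y, are found in promoters that SREBP-1 acts on. SCD lies at chr10:100347124-100364834 on the plus strand (GRCh38). The bases before its first counted exon, chr10:100346983-100347123, hold the CCAAT box, in capitals here, at 229 and 186 bases before the RefSeq start (RefSeq, GRCh38.p14).
SCD: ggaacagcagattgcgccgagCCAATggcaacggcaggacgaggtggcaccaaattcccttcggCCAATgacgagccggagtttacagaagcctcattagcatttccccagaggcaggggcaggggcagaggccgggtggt
Over the promoters of the genes in the RefSeq table (250 bases before to 50 after each start, both strands), CCAAT was in 16 of 55 promoters (29.1%), against 34.6% of 35116 promoters in all. TCACNCCAC, the core of the sterol response element, was in 2 of 55 (ACSL1 and PNPLA2), against 1.13%, and CACGTG, the E-box, in 2 (ELOVL5 and PLIN2), against 7.26%. An androgen response element searched as AGAACA followed after 3 bases by TGTTCT, and a PPAR repeat searched as AGGTCA followed after 1 base by AGGTCA, were in none, against 0.00285 and 0.0228% of all promoters. The table holds 34 of the 39 genes, without FABP5, FASN, DGAT2, DGAT1 and DECR1.

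The elongases diverged from each other. ELOVL2, which lengthens polyunsaturated fatty acids, was highest in VCaP-T. ELOVL2 was at 244, 260.5 and 243 CPM in the VCaP-T libraries, 76.5, 67.9 and 77.8 for VCaP-CT, 51.1, 49.1 and 53.5 for VCaP-CT-ER, 129, 115 and 120.2 with VCaP-CT-BR, and 70.8, 74.3 and 72.2 among those of VCaP-CT-BR-ER. VCaP-T lay above and VCaP-CT-ER below each of the other sublines without overlap. It fell from VCaP-T to VCaP-CT by 1.75 (log2, ± 0.06 SE, edgeR adjusted p = 2.26e-16) and further to VCaP-CT-ER (−0.53 ± 0.06, adjusted p = 8.89e-08). It rose to VCaP-CT-BR (0.71 ± 0.06, adjusted p = 1.8e-09; GC-corrected 0.39) and fell from there to VCaP-CT-BR-ER (−0.75 ± 0.06, adjusted p = 1.13e-09). Its 20 nearest tested genes had a median change of 0.37 from VCaP-T to VCaP-CT.

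ELOVL6, which lengthens palmitate to stearate, was lowest in VCaP-T. ELOVL6 was at 9.53, 11 and 9.56 CPM in the VCaP-T libraries, 13.3, 11.5 and 12.7 for VCaP-CT, 34.2, 35.1 and 37.4 for VCaP-CT-ER, 24.1, 21.5 and 24.3 with VCaP-CT-BR, and 27.2, 29.1 and 26.5 among those of VCaP-CT-BR-ER. The antagonist-resistant sublines lay above VCaP-T and VCaP-CT without overlap, and VCaP-CT-ER was the highest. ELOVL6 rose at the first ENZ step by 1.51 ± 0.08 (log2, SE, edgeR adjusted p = 3e-13) and to VCaP-CT-BR by 0.90 ± 0.08 (adjusted p = 4.52e-09). At the ENZ step after bicalutamide it rose by 0.24 ± 0.07 (adjusted p = 0.00942), a call lost without VCaP-CT-BR replicate 2 (0.2, adjusted p = 0.0506).

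ELOVL7, an elongase of saturated long chains, was lowest in VCaP-CT-ER. ELOVL7 was at 40.3, 45.4 and 43.01 CPM in the VCaP-T libraries, 50.96, 52.3 and 57.3 for VCaP-CT, 20.8, 20.4 and 23.02 for VCaP-CT-ER, 52.1, 52.2 and 54.8 with VCaP-CT-BR, and 42.5, 40.2 and 43.7 among those of VCaP-CT-BR-ER. The VCaP-CT-ER libraries lay below every other library. ELOVL7 fell there by 1.32 from VCaP-CT (log2, ± 0.06 SE, edgeR adjusted p = 1.93e-13), and VCaP-CT-BR differed from VCaP-CT by −0.01 ± 0.06 (adjusted p = 0.875; GC-corrected −0.38, adjusted p = 5.77e-08).

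The other members of this group changed by less than 2-fold. ELOVL1, of very long chains, fell from VCaP-T to VCaP-CT (−0.51 ± 0.05, edgeR adjusted p = 2.99e-08) and rose to VCaP-CT-ER (0.39 ± 0.05, adjusted p = 1.61e-06) and VCaP-CT-BR (0.70 ± 0.05, adjusted p = 6.07e-10). GC-corrected, its rise to VCaP-CT-ER was 0.58. FADS1, the delta-5 desaturase, fell to VCaP-CT (−0.37 ± 0.05, adjusted p = 5.28e-07), rose to VCaP-CT-ER (0.40 ± 0.05, adjusted p = 2.69e-07) and fell at the ENZ step after bicalutamide (−0.53 ± 0.05, adjusted p = 1.1e-08). FADS2, the delta-6 desaturase, and ELOVL5, which lengthens polyunsaturated chains of medium length, fell at that same last step (−0.36 ± 0.06 and −0.37 ± 0.05, adjusted p = 8.28e-05 and 6.75e-06). FADS1 and FADS2 overlap each other and other genes, with 5.6 and 4.9% of their exon bases shared in all and left out by the counting.

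**Figure D4:**
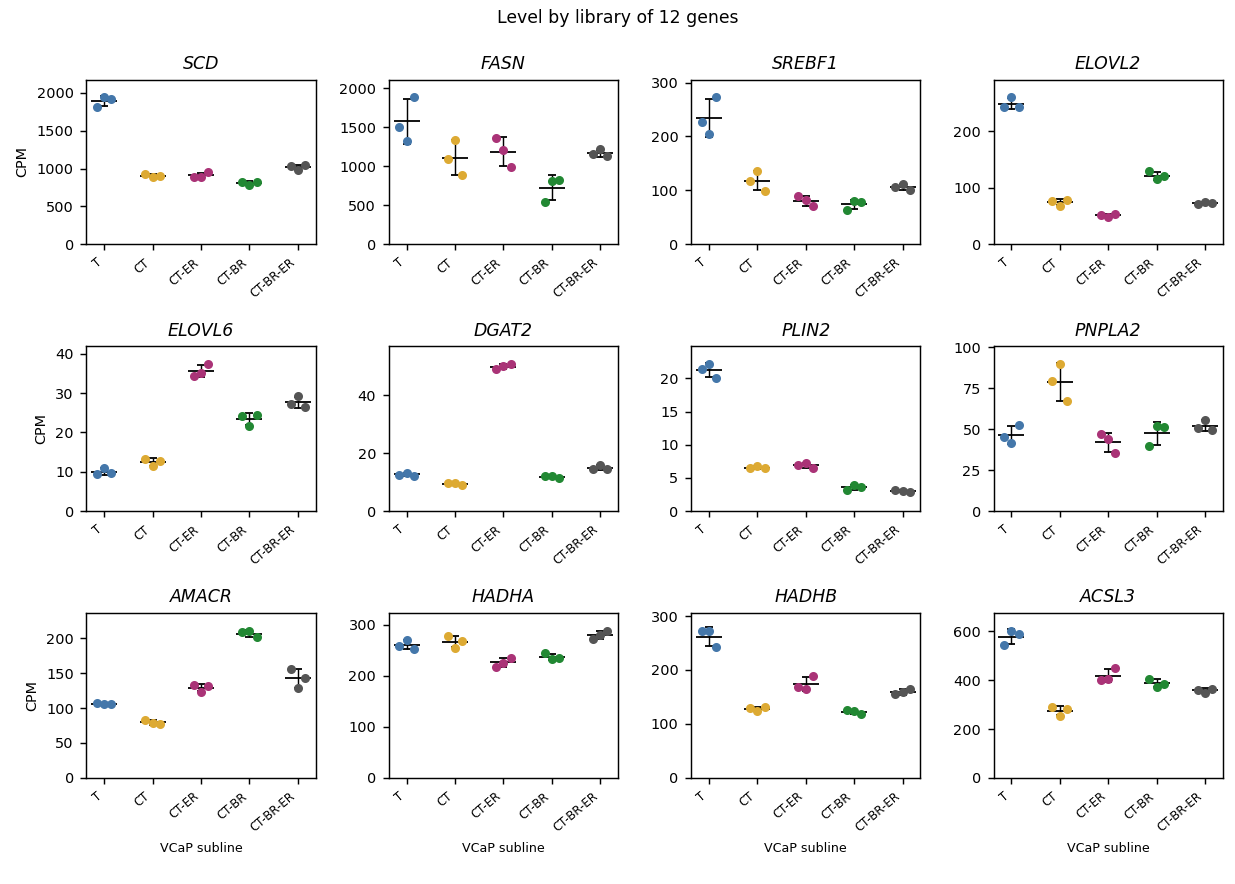
Level by library of 12 genes, as CPM (y axis, from 0) in the 3 libraries of each subline (points), with the mean (bar) and the SD (whiskers). SCD, ELOVL2 and PLIN2 are highest in VCaP-T without overlap, DGAT2 stands at 49.1 to 50.8 CPM in VCaP-CT-ER alone, and HADHB but not HADHA falls from VCaP-T to VCaP-CT.

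Of the acyl-CoA synthetases, which attach fatty acids to coenzyme A, ACSL3 and ACSL5 were lower in every subline than in VCaP-T. ACSL3, which acts at the endoplasmic reticulum and on nascent lipid droplets, is known as androgen-induced. ACSL3 was at 545, 602 and 588 CPM in the VCaP-T libraries, 291, 254 and 283 for VCaP-CT, 401, 404 and 448 for VCaP-CT-ER, 406, 374 and 383 with VCaP-CT-BR, and 361, 349 and 365 among those of VCaP-CT-BR-ER. VCaP-T was highest and VCaP-CT lowest, each without overlap. ACSL3 fell from VCaP-T to VCaP-CT by 1.07 (log2, ± 0.06 SE, edgeR adjusted p = 9.46e-13) and rose at the first ENZ step (0.60 ± 0.06, adjusted p = 1.23e-08) and to VCaP-CT-BR (0.49 ± 0.06, adjusted p = 4.1e-07; GC-corrected 0.14, adjusted p = 0.00191). In the uncorrected fit its 20 nearest tested genes had median changes of 0.01, 0.58 and 0.32, in the same order. At each of the rises, 16 of the 20 also rose.

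ACSL5 was at 359, 370.1 and 342 CPM in the VCaP-T libraries, 259, 259.5 and 244 for VCaP-CT, 269, 288 and 297 for VCaP-CT-ER, 184, 168 and 169.5 with VCaP-CT-BR, and 143, 139 and 149 among those of VCaP-CT-BR-ER. The bicalutamide-derived sublines were the lowest and did not overlap with the others. ACSL5 fell from VCaP-T to VCaP-CT (−0.49 ± 0.05 log2, edgeR adjusted p = 2.94e-08), from VCaP-CT to VCaP-CT-BR (−0.55 ± 0.05, adjusted p = 1.56e-08) and from there to VCaP-CT-BR-ER (−0.28 ± 0.05, adjusted p = 0.000172), a fall of 1.32 from VCaP-T in all. It rose at the first ENZ step by 0.16 ± 0.05 (adjusted p = 0.00836). ACSL1, which serves both storage and oxidation, rose at both ENZ steps (0.40 ± 0.05 and 0.24 ± 0.05, adjusted p = 3.41e-07 and 0.000378). ACSL4, which prefers arachidonate, stayed between 8.86 and 12.8 CPM in the 15 libraries.

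Of the 3 genes of transcriptional control, SREBF1 had the highest level. SREBF1 was at 228, 204 and 273 CPM in the VCaP-T libraries, 118, 135 and 99.7 for VCaP-CT, 88.9, 81.3 and 71.5 for VCaP-CT-ER, 63.7, 79.7 and 78.1 with VCaP-CT-BR, and 106, 112 and 100.5 among those of VCaP-CT-BR-ER. VCaP-T lay above every other subline without overlap. SREBF1 fell from VCaP-T to VCaP-CT by 1.00 (log2, ± 0.11 SE, edgeR adjusted p = 6.22e-08), just under 2-fold, and from VCaP-CT by 0.55 to VCaP-CT-ER and by 0.67 to VCaP-CT-BR (adjusted p = 0.000194 and 2.85e-05). It rose at the ENZ step after bicalutamide by 0.52 ± 0.11 (adjusted p = 0.000572). GC-corrected, the first fall was −1.09, and those to VCaP-CT-ER and VCaP-CT-BR were −0.27 and −0.31 (adjusted p = 1.79e-05 and 6.05e-06).

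MLXIPL encodes ChREBP, a carbohydrate-responsive activator of lipogenic genes. MLXIPL was at 3.41, 2.18 and 2.85 CPM in the VCaP-T libraries, 1.72, 2.16 and 2.18 for VCaP-CT, 1.99, 1.901 and 1.51 for VCaP-CT-ER, 0.7, 0.785 and 0.892 with VCaP-CT-BR, and 1.41, 1.36 and 1.26 among those of VCaP-CT-BR-ER. VCaP-CT-BR was the lowest without overlap. MLXIPL fell there by 1.35 from VCaP-CT (log2, ± 0.20 SE, edgeR adjusted p = 9.28e-06; GC-corrected −0.99, under 2-fold) and rose to VCaP-CT-BR-ER by 0.76 ± 0.21 (adjusted p = 0.0063). Its fall from VCaP-T to VCaP-CT (−0.47 ± 0.16, adjusted p = 0.0158) was not called without VCaP-T replicate 1 (−0.33, adjusted p = 0.102) or without VCaP-CT replicate 1 (−0.38, adjusted p = 0.0759). THRSP, a lipogenic protein of liver and fat, had at most 2 counts in any library, under the floor of 3 counts.

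In triglyceride assembly, DGAT2 had the widest range of levels. It joins the third acyl chain at the droplet. DGAT2 was at 12.4, 13.3 and 12.2 CPM in the VCaP-T libraries, 9.75, 9.77 and 9.03 for VCaP-CT, 49.1, 50.03 and 50.8 for VCaP-CT-ER, 12, 12.3 and 11.4 with VCaP-CT-BR, and 14.5, 16.02 and 14.6 among those of VCaP-CT-BR-ER. The VCaP-CT-ER libraries were well above every other library, and VCaP-CT was the lowest. DGAT2 rose at the first ENZ step by 2.39 ± 0.07 (log2, SE, edgeR adjusted p = 1.2e-17). It fell from VCaP-T to VCaP-CT (−0.41 ± 0.07, adjusted p = 2.44e-05) and rose by 0.32 ± 0.07 to VCaP-CT-BR and by 0.34 ± 0.07 from there to VCaP-CT-BR-ER (adjusted p = 0.000578 and 0.000272). Its 20 nearest tested genes had a median change of 0.3 at the first ENZ step.

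DGAT1, the other enzyme of that step, lay between 20.1 and 42.8 CPM and fell from VCaP-CT to VCaP-CT-BR (−0.67 ± 0.09, edgeR adjusted p = 2.69e-06; GC-corrected −0.27, adjusted p = 6.78e-05). At that step each of its 20 nearest tested genes was lower too in the uncorrected fit, with a median of −0.36. Their changes were not read with the GC correction, and the cause was not tested. At the first ENZ step DGAT1 was at −0.16 ± 0.09 (adjusted p = 0.123), and GC-corrected at 0.15 (adjusted p = 0.00965). AGPAT2, which makes phosphatidic acid, fell from VCaP-CT to VCaP-CT-BR (−0.82 ± 0.13, adjusted p = 2.43e-05; GC-corrected −0.37) and rose to VCaP-CT-BR-ER (0.75 ± 0.13, adjusted p = 7.92e-05). GPAM, the mitochondrial acyltransferase of the first step, fell from VCaP-T to VCaP-CT (−0.30 ± 0.08, adjusted p = 0.00385) and rose to VCaP-CT-ER and VCaP-CT-BR (0.31 ± 0.08 and 0.57 ± 0.08, adjusted p = 0.00296 and 8.5e-06; GC-corrected 0.18 and 0.29). LPIN1, the phosphatidate phosphatase lipin-1, was highest in VCaP-T at 58.2 to 59.6 CPM and fell to VCaP-CT by 0.69 (adjusted p = 1.08e-10).

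PLIN2, perilipin-2, coats lipid droplets and is often used as a measure of them. PLIN2 was at 21.5, 22.2 and 20.03 CPM in the VCaP-T libraries, 6.43, 6.75 and 6.48 for VCaP-CT, 6.98, 7.25 and 6.48 for VCaP-CT-ER, 3.19, 3.87 and 3.67 with VCaP-CT-BR, and 3.16, 2.98 and 2.81 among those of VCaP-CT-BR-ER. VCaP-T was highest, VCaP-CT and VCaP-CT-ER overlapped far below it, and the bicalutamide-derived sublines were the lowest. PLIN2 fell from VCaP-T to VCaP-CT by 1.69 (log2, ± 0.08 SE, edgeR adjusted p = 1.01e-13) and from VCaP-CT to VCaP-CT-BR by 0.87 (± 0.09, adjusted p = 1.38e-07). At the ENZ step after bicalutamide the change was −0.26 ± 0.10 (adjusted p = 0.0489), which missed the threshold in 5 of the fits that left out 1 library (the weakest, without VCaP-CT-BR replicate 2, gave −0.19 and adjusted p = 0.204), with the GC correction (−0.24, adjusted p = 0.0804), with DESeq2 (−0.25, adjusted p = 0.129), with upper-quartile factors (adjusted p = 0.0544), with no filter on low counts (adjusted p = 0.195) and in a fit of the compared sublines alone (adjusted p = 0.0859). Against VCaP-T, VCaP-CT-BR-ER was lower by 2.83 (adjusted p = 4.53e-17), and none of its 20 nearest tested genes moved in that direction.

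PNPLA2, adipose triglyceride lipase, which starts the release of fatty acids from droplets, had its highest levels in VCaP-CT. PNPLA2 was at 44.95, 41.6 and 52.4 CPM in the VCaP-T libraries, 79.6, 89.7 and 67.1 for VCaP-CT, 46.8, 43.8 and 35.4 for VCaP-CT-ER, 39.6, 51.7 and 51.3 with VCaP-CT-BR, and 50.5, 55.8 and 49.5 among those of VCaP-CT-BR-ER. The VCaP-CT libraries lay above every other library. PNPLA2 rose from VCaP-T to VCaP-CT by 0.77 ± 0.11 (log2, SE, edgeR adjusted p = 5.4e-06) and fell to VCaP-CT-ER by 0.91 and to VCaP-CT-BR by 0.73 (adjusted p = 6.84e-07 and 1.76e-05). GC-corrected, these falls were −0.57 and −0.31 (adjusted p = 6.89e-13 and 3.84e-07). In the uncorrected fit each of its 20 nearest tested genes was lower in VCaP-CT-ER than in VCaP-CT, with a median of −0.6. These neighbours were not read with the GC correction, and the cause of their shared direction was not tested. ABHD5, the activator of this lipase, rose at both steps (0.43 ± 0.09 and 0.60 ± 0.09, adjusted p = 0.000247 and 8e-06; GC-corrected 0.34 and 0.39), opposite to PNPLA2. PLIN3, another droplet coat protein, lay between 24.2 and 36.4 CPM and rose from VCaP-T to VCaP-CT (0.28 ± 0.08, adjusted p = 0.00359).

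Uptake and carriage genes were close to the lower limit of detection. FABP5, a cytosolic fatty acid carrier, had 12 to 23 counts per library in VCaP-T and 63 to 112 in the others. FABP5 was at 0.468, 0.327 and 0.541 CPM in the VCaP-T libraries, 1.902, 2.71 and 2.21 for VCaP-CT, 1.66, 2.17 and 1.64 for VCaP-CT-ER, 2.54, 2.93 and 2.53 with VCaP-CT-BR, and 1.798, 2.01 and 2.097 among those of VCaP-CT-BR-ER. VCaP-T was below every other subline without overlap, and FABP5 rose to VCaP-CT by 2.33 ± 0.21 (log2, SE, edgeR adjusted p = 4.8e-09). The gene has 15 named pseudogenes, and reads that match several places were not counted, so its level is uncertain. CD36, a fatty acid transporter of the cell surface, had 5 to 23 counts per library. CD36 was at 0.495, 0.272 and 0.306 CPM in the VCaP-T libraries, 0.362, 0.285 and 0.587 for VCaP-CT, 0.124, 0.104 and 0.323 for VCaP-CT-ER, 0.544, 0.549 and 0.5701 with VCaP-CT-BR, and 0.146, 0.1898 and 0.183 among those of VCaP-CT-BR-ER. Its libraries in VCaP-CT and VCaP-CT-ER overlapped. CD36 was lower in VCaP-CT-ER than in VCaP-CT by 1.21 (± 0.41 SE, adjusted p = 0.0154), a call lost without VCaP-CT replicate 3 (−0.84, adjusted p = 0.132), VCaP-CT-ER replicate 1 (−0.98, adjusted p = 0.0751) or VCaP-CT-ER replicate 2 (−0.91, adjusted p = 0.0865). At the ENZ step after bicalutamide it fell by 1.67 (± 0.40, adjusted p = 0.00182) without overlap.

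Oxidation of fatty acids is gated by CPT1A, the outer carnitine palmitoyltransferase that controls entry of fatty acids into mitochondria. CPT1A was at 160.0, 167 and 164 CPM in the VCaP-T libraries, 150.3, 160.1 and 163 for VCaP-CT, 179, 187 and 191 for VCaP-CT-ER, 149.6, 149 and 147 with VCaP-CT-BR, and 189, 183 and 184 among those of VCaP-CT-BR-ER. The ENZ-treated sublines lay above the other 3 without overlap. CPT1A rose at both ENZ steps, by 0.23 ± 0.04 and 0.32 ± 0.04 (log2, SE, edgeR adjusted p = 0.000101 and 5.28e-06). ACADM, the medium-chain acyl-CoA dehydrogenase, did the same (0.82 ± 0.08 and 0.48 ± 0.08, adjusted p = 1.54e-08 and 4.51e-05), after a fall from VCaP-T to VCaP-CT (−0.37 ± 0.08, adjusted p = 0.000383). Its rise from VCaP-CT to VCaP-CT-BR (0.30 ± 0.08, adjusted p = 0.00343) was not called GC-corrected (−0.01, adjusted p = 0.943). ACADVL, the dehydrogenase of very long chains, fell at the ENZ step after bicalutamide (−0.31 ± 0.05, adjusted p = 3.33e-05). CPT2, the inner carnitine palmitoyltransferase, fell from VCaP-CT to VCaP-CT-BR (−0.25 ± 0.07, adjusted p = 0.00356; GC-corrected −0.41). ECI2, an enoyl-CoA isomerase, rose to VCaP-CT-ER and to VCaP-CT-BR (0.25 ± 0.07 and 0.36 ± 0.07, adjusted p = 0.00385 and 0.000183), and 29.8% of its exon bases overlap other genes.

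HADHA and HADHB encode the alpha and beta subunits of the mitochondrial trifunctional protein, which assembles from both. The genes lie head to head on chromosome 2. HADHA was at 258, 270.1 and 252 CPM in the VCaP-T libraries, 277, 255 and 268 for VCaP-CT, 217, 225 and 235 for VCaP-CT-ER, 243, 232 and 234 with VCaP-CT-BR, and 272, 279 and 288 among those of VCaP-CT-BR-ER. HADHB was at 271, 272 and 242 CPM in the VCaP-T libraries, 129, 124 and 131 for VCaP-CT, 168, 165 and 189 for VCaP-CT-ER, 126, 123 and 118 with VCaP-CT-BR, and 155, 158 and 165 among those of VCaP-CT-BR-ER. HADHB was highest in VCaP-T without overlap, and VCaP-CT and VCaP-CT-BR overlapped at the lowest levels. HADHA overlapped between VCaP-T and VCaP-CT, and its lowest mean was in VCaP-CT-ER, which overlapped with VCaP-CT-BR. HADHB, but not HADHA, fell from VCaP-T to VCaP-CT (−1.03 ± 0.06 and 0.04 ± 0.05 log2, edgeR adjusted p = 1.43e-12 and 0.522). At the next step HADHB rose and HADHA fell to VCaP-CT-ER (0.44 ± 0.06 and −0.24 ± 0.05, adjusted p = 8.91e-07 and 0.000145). Both rose at the ENZ step after bicalutamide (0.38 ± 0.06 and 0.24 ± 0.05, adjusted p = 1.35e-05 and 0.000265).

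Per kilobase of exon, the ratio of HADHB to HADHA was 1.08, 1.03 and 0.983 for the VCaP-T libraries, 0.476, 0.497 and 0.502 for VCaP-CT, 0.791, 0.752 and 0.825 for VCaP-CT-ER, 0.53, 0.545 and 0.515 with VCaP-CT-BR, and 0.585, 0.582 and 0.589 among those of VCaP-CT-BR-ER. The ratios of no pair of sublines overlapped, with VCaP-T highest and VCaP-CT lowest. Named pseudogenes exist for both (2 for HADHA, 1 for HADHB). The RefSeq starts, 26244632 on the minus strand for HADHA and 26244939 on the plus strand for HADHB, are 307 bases apart, and the counted exons of the pair come within 21 bases of each other. That gap, chr2:26244727-26244747 on the plus strand (GRCh38, RefSeq), is shown because the RefSeq starts of these genes, whose counts changed unequally, lie on either side of it, although the counted HADHB gene begins upstream, at 26243170.
HADHA-HADHB: ccggccccttagccctgcccc

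AMACR, alpha-methylacyl-CoA racemase, prepares branched fatty acids for oxidation and is a known marker of prostate cancer. AMACR was at 107, 106 and 106 CPM in the VCaP-T libraries, 83.2, 79.1 and 76.6 for VCaP-CT, 133, 123 and 131 for VCaP-CT-ER, 208, 210.5 and 201 with VCaP-CT-BR, and 156, 129 and 143 among those of VCaP-CT-BR-ER. VCaP-CT was lowest and VCaP-CT-BR highest, each without overlap. AMACR fell from VCaP-T to VCaP-CT (−0.41 ± 0.06 log2, edgeR adjusted p = 2.56e-06), rose to VCaP-CT-ER (0.70 ± 0.06, adjusted p = 1.3e-09) and to VCaP-CT-BR (1.38 ± 0.06, adjusted p = 1.11e-13), and fell at the ENZ step after bicalutamide (−0.54 ± 0.06, adjusted p = 1.45e-07). Of its exon bases, 64.8% are shared with other annotated genes and were not counted, so the value covers part of the transcript. The readthrough gene C1QTNF3-AMACR had 0 to 9 counts per library. DECR1, a reductase needed to oxidize polyunsaturated fatty acids, had at most 6 counts in any library, while its neighbours OSGIN2 and NBN had 761 to 1422 and 1434 to 3511. The neighbours were looked up after the DECR1 counts were seen, and the cause of the low DECR1 counts was not tested.

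The design also asks whether the ENZ step differed with and without a bicalutamide step before it, and the change at the ENZ step after bicalutamide was compared with that at the first ENZ step. By edgeR's test of the difference 12 of 37 genes were higher and 14 lower after bicalutamide, where 25.2 and 24.5% of all genes tested were. It was at least 2-fold for 2 higher and 3 lower genes (8.93 and 6.9% of all genes). DGAT2 and ELOVL6 rose far less after bicalutamide, with differences of −2.05 ± 0.09 and −1.26 ± 0.10 (log2, SE, adjusted p = 2.01e-13 and 2.73e-09). AMACR rose at the first step and fell at the second, a difference of −1.23 ± 0.08 (adjusted p = 8.78e-11). SREBF1 did the reverse, with 1.07 ± 0.15 (adjusted p = 7.54e-06; GC-corrected 0.66, adjusted p = 5.22e-09). PNPLA2 fell at the first step only, with 1.03 ± 0.16 (adjusted p = 1.99e-05; GC-corrected 0.52, adjusted p = 1.52e-08).

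Under 2-fold, the steps also differed for ACLY (0.60 ± 0.05, edgeR adjusted p = 1.3e-08), ELOVL7 (0.99 ± 0.09, adjusted p = 1.04e-08; GC-corrected 1.30), FADS1 (−0.93 ± 0.07, adjusted p = 3.36e-10; GC-corrected −1.05) and ACSL3 (−0.71 ± 0.08, adjusted p = 3.14e-07; GC-corrected −0.42). Other genes whose steps differed by under 2-fold included AGPAT2 (0.99, GC-corrected 0.43) and MLXIPL (0.92, GC-corrected 0.51). The MLXIPL difference was not called GC-corrected (edgeR adjusted p = 0.101). For FASN the difference was 0.59 ± 0.21 (adjusted p = 0.0254). GC-corrected it was 0.06 (adjusted p = 0.569), and it missed the threshold without VCaP-CT replicate 1 or 2, VCaP-CT-ER replicate 3, VCaP-CT-BR replicate 1 or VCaP-CT-BR-ER replicate 2 (0.42 to 0.58, adjusted p = 0.0519 to 0.105). For CPT1A and HADHB the differences of 0.08 ± 0.06 and −0.06 ± 0.08 (adjusted p = 0.278 and 0.561) did not pass.

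**Figure D5:**
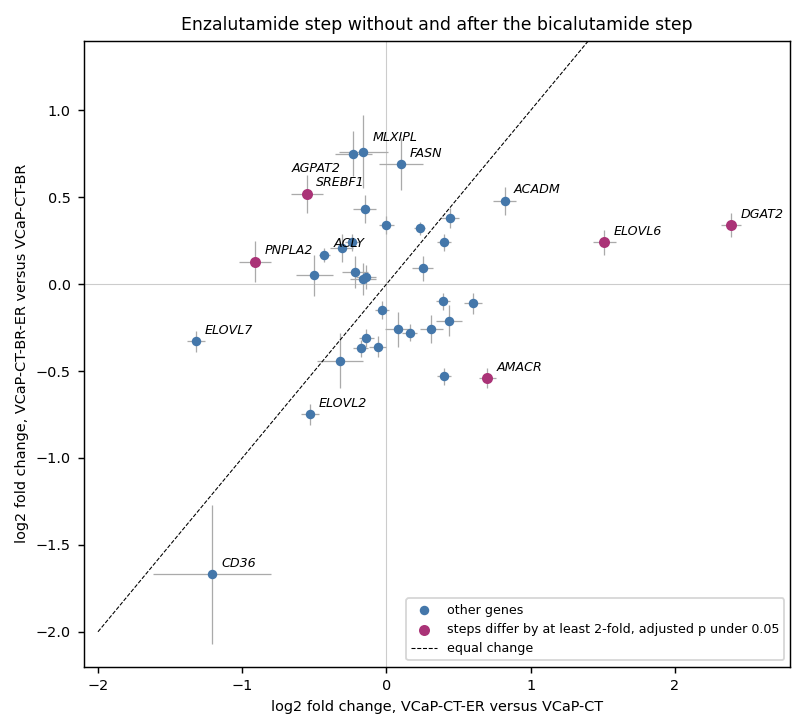
Log2 fold change of each of the 37 genes at the first ENZ step (x axis) and at the ENZ step after bicalutamide (y axis), with standard errors as bars and equal change as a dashed line. The 5 coloured genes, DGAT2, ELOVL6, AMACR, SREBF1 and PNPLA2, differ between the steps by at least 2-fold.

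Against VCaP-T, the net changes in both ENZ-resistant sublines can be set side by side, though they share the VCaP-T libraries. In VCaP-CT-ER 8 genes were higher and 20 lower (34.3 and 34.7% of all genes), and in VCaP-CT-BR-ER 11 and 17 (34.9 and 35.3%). The libraries did not overlap for 8 higher and 19 lower genes in VCaP-CT-ER (35.7 and 35.7%) and for 13 and 17 in VCaP-CT-BR-ER (36.7 and 36.7%). SCD was at −1.06 ± 0.05 and −0.90 ± 0.05 (log2, SE), SREBF1 at −1.54 ± 0.11 and −1.15 ± 0.11, ELOVL2 at −2.28 ± 0.06 and −1.78 ± 0.06, and PLIN2 at −1.62 ± 0.08 and −2.83 ± 0.09, with edgeR adjusted p of at most 5.48e-09. GC-corrected, SCD in VCaP-CT-BR-ER was at −1.02, past 2-fold. ELOVL6 was at 1.83 ± 0.08 and 1.46 ± 0.08, FABP5 at 2.02 ± 0.22 and 2.12 ± 0.22, and DGAT2 at 1.98 ± 0.06 and 0.25 ± 0.07, with adjusted p of at most 0.00214. FASN was at −0.41 ± 0.15 and −0.43 ± 0.15 (adjusted p = 0.02 and 0.0141; GC-corrected −0.23 and −0.35). Without VCaP-T replicate 3 neither FASN value passed (−0.26 and −0.29, adjusted p = 0.14 and 0.0995), nor did that of VCaP-CT-ER without its replicate 3 (−0.29, adjusted p = 0.106).

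The rest of the pathway was followed in a list of 105 further genes of lipid metabolism, of which 89 were tested. These genes were read from the uncorrected fit only, so how far their changes follow GC content was not tested. From VCaP-T to VCaP-CT 28 rose and 41 fell, at the first ENZ step 34 rose and 29 fell, from VCaP-CT to VCaP-CT-BR 22 rose and 40 fell, and at the ENZ step after bicalutamide 33 rose and 15 fell, beside the shares of all genes given above. PPARG, the nuclear receptor of adipocyte differentiation, was at 10.6, 11.4 and 9.35 CPM in the VCaP-T libraries, 0.121, 0.171 and 0.252 for VCaP-CT, 7.33, 7.44 and 9.74 for VCaP-CT-ER, 0.233, 0.314 and 0.273 with VCaP-CT-BR, and 2.11, 2.82 and 2.54 among those of VCaP-CT-BR-ER. Its level in VCaP-CT rests on 4, 6 and 9 counts. It fell from VCaP-T to VCaP-CT with a log2 change of −5.81 (± 0.22 SE, edgeR adjusted p = 1.55e-15), and rose by 5.45 ± 0.22 to VCaP-CT-ER and by 3.17 ± 0.24 at the ENZ step after bicalutamide (adjusted p = 9.45e-15 and 9.1e-10). Its coactivator PPARGC1A fell to VCaP-CT (−4.75) and rose to VCaP-CT-ER (3.59), with adjusted p = 4.53e-14 and 3.01e-11.

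Peroxisomal genes of this list were among those that changed most. ACOX2, a peroxisomal oxidase of branched chains, fell at the first ENZ step by 2.19 and from VCaP-CT to VCaP-CT-BR by 2.37 (log2, edgeR adjusted p = 1.36e-15 and 5.66e-15). CROT, which passes medium-chain products of peroxisomes on to mitochondria, was at 16.1, 17.1 and 16.3 CPM in the VCaP-T libraries, 10.9, 8.74 and 10.9 for VCaP-CT, 86.1, 84.6 and 90.9 for VCaP-CT-ER, 28, 27.2 and 26.8 with VCaP-CT-BR, and 38.04, 36.8 and 40.3 among those of VCaP-CT-BR-ER, and it rose to VCaP-CT-ER by 3.1 and to VCaP-CT-BR by 1.43 (adjusted p = 1.01e-18 and 2.21e-12).

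Cholesterol synthesis, the neighbouring branch of lipid synthesis, was read from 23 genes, of which 22 were tested. Like the 15 androgen-induced genes below, they were read from the uncorrected fit only. From VCaP-T to VCaP-CT 13 rose and 5 fell, with a median log2 change of 0.34, where 33.1 and 32.2% of all genes did, while SREBF1, SCD and FASN fell. At the first ENZ step 15 rose and 3 fell (median 0.26, against 29.6 and 31.2% of all genes), from VCaP-CT to VCaP-CT-BR 9 rose and 5 fell (0.01, against 26.1 and 27.0%), and at the ENZ step after bicalutamide 11 rose and 3 fell (0.18, against 21.2 and 21.7%). Of 15 genes known to be induced by androgen, KLK3 among them, 5 rose and 10 fell from VCaP-T to VCaP-CT, 8 rose and 6 fell to VCaP-CT-ER, 4 rose and 9 fell to VCaP-CT-BR, and 6 rose and 7 fell from there to VCaP-CT-BR-ER, beside these same shares of all genes.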

How the data were processed

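RNA-seq was done on 15 libraries, 3 for each of 5 VCaP sublines. The deposited values are raw fragment counts per gene: the authors aligned paired reads with STAR 2.5.4b to GRCh38 and counted them without strand with featureCounts 1.6.2 on GENCODE release 28, so reads in several places or in overlapping exons were left out. Totals were 33665716 to 46935279 per library, which makes 3 counts the detection floor, covering counting error only. Symbols came from GENCODE release 44 for 57754 identifiers.

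From these counts, 19621 of 58381 genes passed edgeR's filterByExpr (minimum count 10) and were fitted with edgeR 4.0.16 in R 4.3.3 (TMM factors, a term per subline, quasi-likelihood F test, Benjamini-Hochberg over all genes tested, threshold 0.05). The fit was also run on simulated counts in which few genes changed and all had the same spread. That run does not cover data like these, in which many genes change. The standard error is the log2 fold change over the square root of F. Genes got a value per library if at least 2-fold changed or among 8 set names, and other lipid genes were named among the 3 that rose or fell most at a step. HADHA, outside this rule, was shown per library as the partner of HADHB, and their ratio was not among the planned results. The members and lists were chosen with earlier results of these data known. Alternatives were other scaling, other filters, DESeq2 1.42.0, a replicate block and leaving out libraries. The GC correction (lowess, span 0.3, as an offset) was added after seeing the data. Samples sharing a replicate number were not paired by origin in the labels.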

Additional observations from a re-analysis of the deposited data

Results flagged for a closer look

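For 5 genes the change at the ENZ step after bicalutamide differed from that at the ENZ step from VCaP-CT by at least 2-fold, by edgeR's test of the difference itself. The difference (log2, later step minus earlier) was −2.05 for DGAT2, −1.26 for ELOVL6, −1.23 for AMACR, 1.07 for SREBF1 and 1.03 for PNPLA2. With the GC correction it was −2.19, −1.10, −1.12, 0.66 and 0.52. Bicalutamide history and separate derivation of the lines cannot be told apart here.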

How the results depend on the processing

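With 3 libraries a subline, leaving out each in turn kept 1646 values of single genes on their side of the threshold, ended 99 calls, gained 31 and reversed 0. Deviations from the subline mean correlated at −0.01 on average between libraries of the same replicate number, and at −0.192 to 0.162 by pair of sublines. In 0 of 10 pairs were all these correlations over 0.1. The fit with a replicate block left 254 of 259 values on their side, gained 4 and lost 1, and moved 0 of 28 counts of genes. The GC correction left 206 of 259 on their side, gained 26, lost 16 and reversed 11, none called both before and after. These became 0.11 for FADS2, 0.15 for DGAT1 and 0.05 for ACADVL at the first ENZ step, −0.37 for ACSL4, −0.01 for ACADM and 0.19 for ACADVL from VCaP-CT to VCaP-CT-BR, −0.13 for DGAT1 at the ENZ step after bicalutamide, 0.02 for ELOVL1 in VCaP-CT-ER and −0.19 for GPAM in VCaP-CT-BR-ER against VCaP-T, and 0.04 for ELOVL2 and −0.28 for DGAT1 between the ENZ steps. Counts of genes changed at least 2-fold also moved. Without ACACA, AMACR and FABP5, whose counting is doubtful, the rises went from 1 to 0 from VCaP-T to VCaP-CT and from VCaP-CT to VCaP-CT-BR, and from 2 to 1 in VCaP-CT-BR-ER against VCaP-T, as fewer genes were counted. The falls at the first ENZ step went from 2 to 1 with DESeq2 or a minimum of 10 counts in every library (1 to 2 leaving out a library). The falls from VCaP-CT to VCaP-CT-BR went from 1 to 0 with the GC correction, and those at the ENZ step after bicalutamide from 1 to 2 with no filter and to 0 with 10 counts in every library. Between the ENZ steps the genes higher by 2-fold went from 2 to 1 with total-count scaling or the GC correction and to 4 with upper-quartile factors (0 to 5 leaving out a library). Beyond what these alternatives change by construction, the cause was not tested.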
